A study of Caenorhabditis elegans with 2 samples.

Results

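The 9 genes described here are 8 heterochronic genes of the nematode Caenorhabditis elegans (lin-14, lin-28, lin-46, hbl-1, lin-41, lin-29, lin-42 and daf-12) and the Pumilio-family gene puf-9. They are 9 of 19973 protein-coding genes in Ensembl release 115. They were chosen by name with peak values of these data already known, including the called peaks and their signals at lin-28, lin-46 and puf-9, so their counts and values are given as a description, without tests. A peak was counted for a gene when it overlapped the gene body or the 3 kb on either side by at least 1 bp. Binding of CEH-88, a homeodomain protein, had been mapped by ChIP-seq, the sequencing of DNA recovered with an immunoprecipitated protein, in whole L1 larvae at 6 hours of age, starved after bleaching. The larvae were of strain OP593, which carries wgIs593, a transgene with ceh-88 joined to TY1, EGFP and 3xFLAG tags and an unc-119(+) copy, in an unc-119 (tm4063) background. An antibody against GFP was used for the precipitation, although 1 label names ceh-88 as the antibody's target.

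There was 1 group, with 2 biological replicates in it, and no strain without the tagged protein was analysed here. The tagged protein therefore came from a single transgenic strain, and DNA that any precipitation would recover cannot be told apart from DNA bound by CEH-88. The authors' lists hold regions past a threshold on the irreproducible discovery rate (IDR), which measures how likely a region is to fail to repeat between inputs. A region has an IDR score of up to 1000, and the lowest score in the thresholded lists was 830, which equals an IDR of 0.01. Peak strength is the authors' own signal value, whose scale differs between lists. The list that the authors call conservative held 1171 peaks, the other whole-series list held 1349, replicate 1's own list held 1128 and replicate 2's own list held 698. Ranked lists of 122189, 122341, 85787 and 98792 regions gave values below the threshold. Read depth is not given in the sources used here, so the precision of each signal is known only from the agreement of the replicates. Coordinates are those of ce11, the same assembly as WBcel235. In whole larvae, weak binding in many cells and strong binding in few cells cannot be told apart, and peak lists hold no expression values against which the stage or tissue could be checked.

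Heterochronic genes set the order in which larval cells take on the fates of successive stages, and mutants skip or repeat stages. The early-acting genes lin-14, lin-28 and hbl-1 are silenced by microRNAs, among them lin-4 and relatives of let-7, and lin-41 and lin-29 act at the switch to adult fates. In the L1 stage lin-14 and lin-28 are known to be active, and PUF proteins such as PUF-9 repress messenger RNAs by binding them.

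Of the 9 genes, 4 had a conservative peak, with 5 peaks in all: puf-9, lin-46 and lin-41 with 1 each and lin-28 with 2. Over all protein-coding genes 11.1% had one (2219 of 19973). In the other whole-series list 5 of the 9 had a peak, lin-14 being the addition, against 12.3% of all protein-coding genes. Replicate 1's own list had 5 of the 9 (lin-28, lin-46, lin-14, puf-9 and daf-12, with 8 peaks) against 10.6%, and replicate 2's own list had 3 (lin-28, lin-46 and puf-9, with 3 peaks) against 7.12%. No thresholded list had a peak at hbl-1, lin-29 or lin-42. Since peak values entered the choice of genes, nothing about the genes follows from these shares. Every gene had regions in the ranked list of the conservative set, from 9 at lin-46 to 50 at daf-12, with median signals from 12.9 at lin-46 to 31.1 at lin-28 (17.2 over the whole ranked list).

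The 9 genes have longer windows than most, with a median of 13.697 kb against 8.027 kb over all protein-coding genes. Among the 1624 protein-coding genes with windows of at least 13.697 kb, a background chosen after the values were seen, 16.8% had a conservative peak. Per length, the windows of the 9 genes held 30.3 conservative peaks per Mb, against 11.7 per Mb in the nuclear genome and 12.04 per Mb in the windows of all protein-coding genes. In the list of replicate 1 they held 48.5 per Mb (genome 11.2), and in that of replicate 2 they held 18.2 per Mb (genome 6.96). The strongest signals of the 4 genes with a conservative peak had a median of 150.6, against 128.9 over the 2219 protein-coding genes with a peak.

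**Figure D1:**
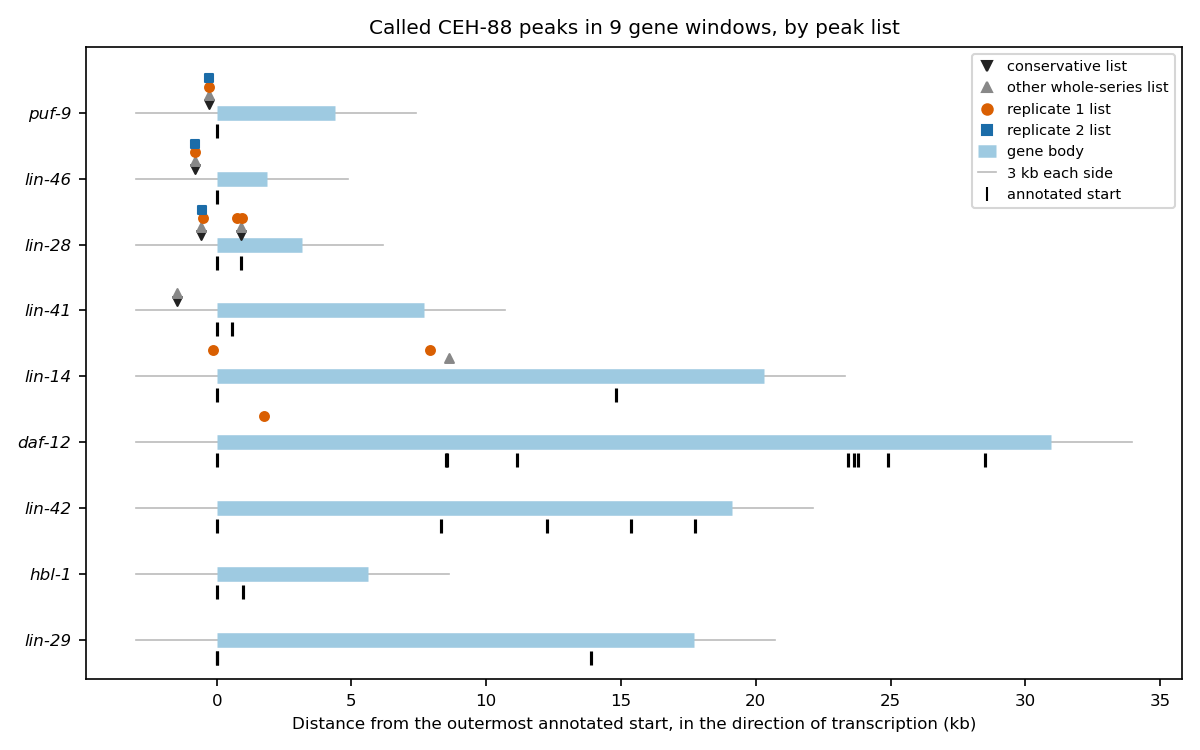
Called CEH-88 peaks at the 9 genes, drawn by distance in kb from the outermost annotated start in the direction of transcription. Blue bars are gene bodies, thin lines the 3 kb on each side, ticks annotated transcript starts and symbols the summits of peaks in each of the 4 thresholded lists: puf-9, lin-46 and lin-28 have symbols from all 4, while hbl-1, lin-29 and lin-42 have none.

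The strongest peak of the 9 genes lay at puf-9 (WBGene00004245, chromosome X, 5841592 to 5845987, plus strand), which encodes a PUF protein known to act with let-7-family microRNAs on the hbl-1 messenger RNA. Its summit was intergenic, which here means outside protein-coding genes. It lay 289 bp upstream of the single annotated start of puf-9, and no protein-coding start was nearer. The sequence of the whole peak is given because it is the strongest of the set, at chrX:5841190-5841413 of ce11 on the plus strand and read from the RefSeq copy of that assembly, with the 101 bp around the summit in capitals.
puf-9 peak: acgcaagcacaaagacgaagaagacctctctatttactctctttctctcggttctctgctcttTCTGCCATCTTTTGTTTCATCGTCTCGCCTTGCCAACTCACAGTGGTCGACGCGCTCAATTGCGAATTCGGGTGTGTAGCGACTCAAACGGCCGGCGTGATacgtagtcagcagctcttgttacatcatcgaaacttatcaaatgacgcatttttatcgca
The peak had a signal of 544.6 and a score of 1000 in the conservative list, rank 23 of 1171 by signal. Replicate 1 had a signal of 305.9 and replicate 2 a signal of 235.3, both with a score of 1000, and the ranks were 23 of 1128 and 28 of 698. Thus the peak was near the top of every thresholded list. The log2 ratio of replicate 1 over replicate 2 was 0.38, beside a median of 0.36 (SD 0.50) over the 1152 conservative peaks with a region in both replicates. The 3 conservative peaks with the most similar pair of replicate signals, by distance on the log2 scale among 1151 others, were nearest to ints-4 (signal 555.4), egg-5 (563.3) and F20B6.9 (532.6).

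The puf-9 peak also overlapped 2 annotated noncoding RNA genes on opposite strands, and its summit, at 5841303, lay within both. W06B11.7 runs from 5841170 to 5841350 on the minus strand and W06B11.9 from 5841185 to 5841361 on the plus strand. Of the conservative peaks, 4.18% overlapped ncRNA genes on both strands and 16.2% (190 of 1171) any gene of that class, against 0.735% and 3.78% of the 121008 ranked regions scoring below 830. Of the 9 loci of these genes called in at least 1 list, 3 overlapped such a gene, 2 of them on both strands. Among the best ranked regions of the 3 genes with no called peak, 2 overlapped one, 1 of them on both strands. These overlaps were examined after the regions had been seen. Binding at the puf-9 start and binding at W06B11.7 and W06B11.9 cannot be told apart at such distances.

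The next strongest peak lay at lin-46 (WBGene00003031, chromosome V, 12968855 to 12970730, plus strand), which encodes a gephyrin-like protein that acts opposite to lin-28 in timing. The peak at V 12967856 to 12968251 had its summit 801 bp upstream of lin-46, in intergenic sequence. The nearest protein-coding start was not that of lin-46 but that of R186.8, 72 bp from the summit, so the peak is closer to that neighbour. Its signal was 183.2 (score 1000, rank 291 of 1171). Replicate 1 had 91.3 and replicate 2 had 97.5, each with a score of 1000, and the log2 ratio of replicate 1 over replicate 2 was -0.09. Both replicates thus called this peak at nearly the same signal, where the median log2 ratio over conservative peaks was 0.36 (SD 0.50). The most similar peaks in the replicates were nearest to eef-1A.2 (178.8), C49A9.10 (191.0) and Y65A5A.2 (179.2).

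At lin-28 (WBGene00003014, chromosome I, 8407630 to 8410804, minus strand), which encodes an RNA-binding protein that blocks maturation of let-7, there were 2 conservative peaks. The stronger, at I 8411180 to 8411575, had an intergenic summit 574 bp upstream of the outermost start and a signal of 118.0 (score 1000, rank 571 of 1171). Replicate 1 had 63.7 and replicate 2 had 58.1 there, both with a score of 1000 (log2 ratio 0.13). The summit of the other peak, at I 8409722 to 8410117, fell on the second annotated start, at 8409920, in the 5' UTR and 884 bp inside the gene. Its signal was 98.6 (score 1000, rank 711 of 1171). The signals of the replicates were similar at this start too, but their scores were not. Replicate 1 had 45.5 with a score of 1000, and replicate 2 had 48.1 with a score of 652, short of the threshold, at a log2 ratio of -0.08. Replicate 1's list also held an overlapping weaker region, at I 8409881 to 8410230, with a signal of 13.5. The peaks most like the stronger lin-28 peak in the replicates were nearest to sto-4 (134.9), K07C5.13 (116.9) and mars-1 (122.6).

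At lin-41 (WBGene00003026, chromosome I, 9334800 to 9342496, minus strand), which encodes an RNA-binding TRIM-NHL protein and is a target of let-7, the peak was called in both lists of the whole series and in neither replicate's own list. It lay at I 9343753 to 9344148, its summit 1455 bp upstream of the outermost start and intergenic, with a signal of 85.2 (score 1000, rank 846 of 1171). Replicate 1 had a signal of 47.5 with a score of 17, and replicate 2 had 38.4 with a score of 163. The log2 ratio of 0.31 was close to the median over conservative peaks, so the replicates had similar signals and low scores at this place. Of all conservative peaks, 244 (20.8%) were likewise in neither replicate's own list. The most similar peaks in the replicates were nearest to atf-6, with 2 overlapping peaks of 68.3 and 32.8 that take their replicate signals from the same regions, and to gcy-33 (82.3). With 1 kb on each side in place of 3 kb, the lin-41 peak falls outside and 3 of the 9 genes have a conservative peak.

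**Figure D2:**
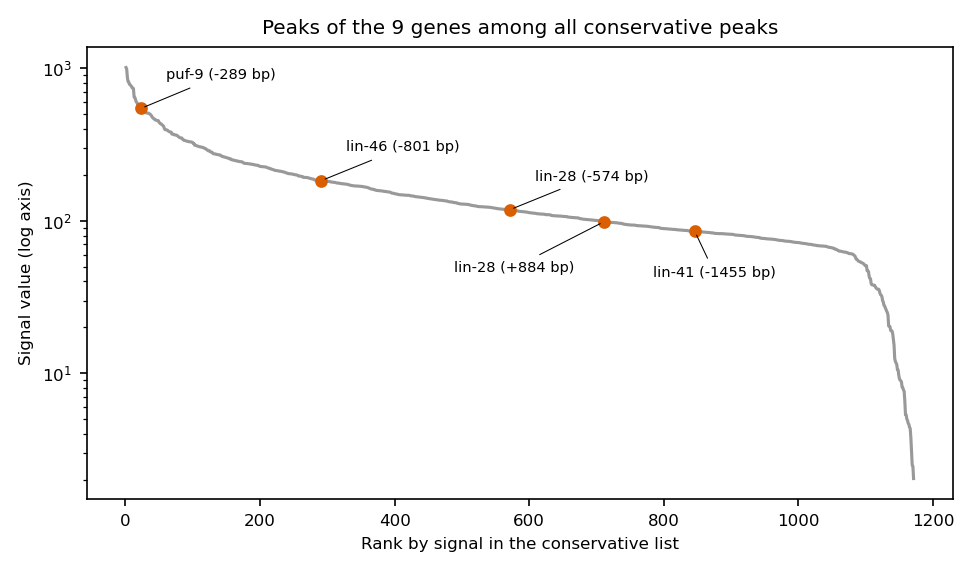
Signal value (log axis) of all 1171 conservative peaks against their rank by signal, with the 5 peaks of puf-9, lin-46, lin-28 and lin-41 as orange points and distances from the outermost start in bp. The puf-9 peak (544.6) sits at rank 23, and the other 4 lie between 183.2 at rank 291 and 85.2 at rank 846.

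Among the loci of the 9 genes, an intron of lin-14 and an intron of daf-12 differed most between the replicates. At lin-14 (WBGene00003003, chromosome X, 11465560 to 11485871, plus strand), which encodes a transcription factor of the L1 stage and is the main target of the microRNA lin-4, no region passed in the conservative list. Replicate 1 called 2 regions there and the other whole-series list called a different one. The strongest, in an intron 7932 bp into the gene (X 11473294 to 11473643 in replicate 1), had a signal of 80.9 with a score of 1000 in replicate 1 and 13.2 with a score of 212 in replicate 2. The replicate 1 signal was 6.11 times that of replicate 2, a log2 ratio of 2.61. The region overlapped the ncRNA gene T25C12.6. In the ranked list of the conservative set the region had a signal of 116.5, close to that of the stronger lin-28 peak, but a score of 23. The window around its summit is shown because it is the least alike in the replicates of those with a region in both, at chrX:11473442-11473542 on the plus strand, with a match to the motif CGCGCC in capitals.
lin-14 intron summit: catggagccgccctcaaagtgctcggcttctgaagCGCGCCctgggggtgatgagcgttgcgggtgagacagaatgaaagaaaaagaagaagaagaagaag

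The second region of replicate 1 lay at the start of lin-14 (X 11465246 to 11465595). It had a signal of 55.6 with a score of 942 in replicate 1 and 22.7 with a score of 15 in replicate 2, a log2 ratio of 1.29. Its summit in the ranked list of the conservative set was 209 bp upstream of the outermost start, with a signal of 76.2 and a score of 435. The region overlapped the ncRNA genes T25C12.8 and T25C12.9, which lie on opposite strands. The third, 8605 bp into the gene (X 11473967 to 11474362), passed in the other whole-series list alone, with a score of 916 and a signal of 58.6. There replicate 2 was the higher, with 22.97 in replicate 1 and 29.5 in replicate 2 (log2 ratio -0.36). Neither replicate's score passed at this region (516 in replicate 1 and 350 in replicate 2).

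At daf-12 (WBGene00000908, chromosome X, 10635908 to 10666875, plus strand), which encodes a nuclear hormone receptor for dafachronic acids that couples stage progression to diapause, replicate 1 had a peak at X 10637492 to 10637841, in an intron 1735 bp from the outermost start. Its signal was 84.97 with a score of 1000 in replicate 1, the third-highest signal of the 9 genes in that list. Replicate 2 had no ranked region at all at this place, and neither had the ranked list paired with the other whole-series list. In the ranked list of the conservative set the region had a signal of 105.8 and a score of 43. Its summit window is given as the strongest region seen by 1 replicate alone, at chrX:10637593-10637693 on the plus strand, with a CGCGCC match, here read on the minus strand, in capitals.
daf-12 intron summit: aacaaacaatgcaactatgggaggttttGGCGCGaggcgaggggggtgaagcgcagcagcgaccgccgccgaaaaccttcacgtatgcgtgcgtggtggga

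Differences as large as those at the lin-14 intron and at daf-12 were uncommon among the peaks of replicate 1. Of its 1128 peaks, 80 (7.09%) had no ranked region in replicate 2, as at daf-12. Over the other 1048 the log2 ratio had a median of 0.58, an SD of 0.96 and a 95th percentile of 1.92, which the lin-14 intron exceeded with 2.61. In all, 13 of the 1048 peaks had a ratio at least as high as the lin-14 intron and 177 at least as high as the lin-14 start. Failing to be called in replicate 2 was common: 582 (51.6%) of the replicate 1 peaks were not called there, and 296 (26.2%) were also absent from the conservative list. In the other direction, 150 (21.5%) of the 698 replicate 2 peaks were not called in replicate 1, whose list is longer. In the ranked list of the conservative set, 595 regions had a signal at least as high as the lin-14 intron, itself included, and 13 of them scored below 830. For the daf-12 intron 684 regions were at least as strong, and 22 of them scored below 830. These counts were chosen after the values of lin-14 and daf-12 had been seen.

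**Figure D3:**
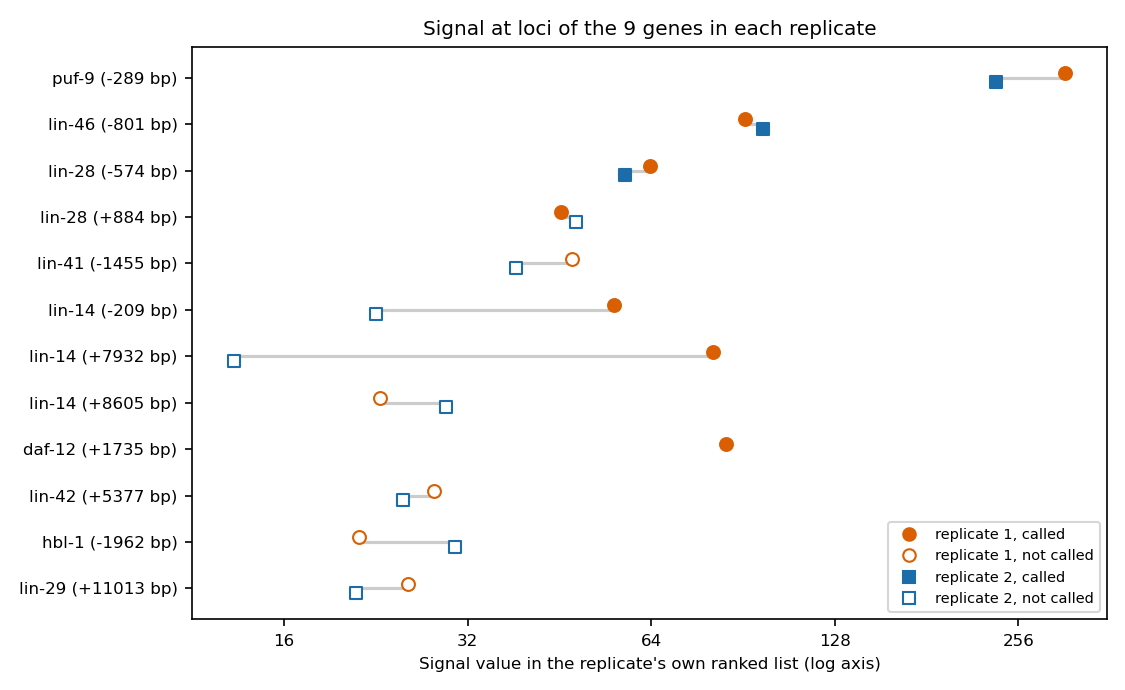
Signal value (log axis, base 2) in each replicate's own ranked list at the 9 called loci and at the strongest ranked region of lin-42, hbl-1 and lin-29, with distances from the outermost start. Orange circles are replicate 1 and blue squares replicate 2, filled where that replicate's own list called the region: the lin-14 intron at +7932 bp has 80.9 and 13.2, and daf-12 has a replicate 1 point alone.

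The remaining 3 genes had regions in the ranked lists alone. At lin-42 (WBGene00018572, chromosome II, 1233236 to 1252359, minus strand), a homologue of the circadian clock gene period, the strongest region lay in an intron 5377 bp from the outermost start (II 1246784 to 1247179), with a signal of 57.7. It came nearest to being called, with a score of 487 in the ranked list of the conservative set and 687 in the ranked list of the other set. Replicate 1 had 28.2 and replicate 2 had 25.1. This region overlapped the ncRNA genes F47F6.13 and F47F6.15, which lie on opposite strands. At 15387 bp into lin-42 a region with a signal of 38.9 and a score of 22 had its summit 3 bp upstream of another annotated start, with 27.5 in replicate 1 and 7.61 in replicate 2.

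For hbl-1 (WBGene00001824, chromosome X, 5822142 to 5827755, plus strand), a zinc finger gene related to Drosophila hunchback, the strongest region was 1962 bp upstream of the outermost start (X 5819982 to 5820377), with a signal of 47.9 and a score of 287. The score there was 632 in the ranked list of the other set. Replicate 1 had 21.2 and replicate 2 had 30.5, and the region overlapped the ncRNA gene F13D11.20. A second region, 1017 bp upstream, had a signal of 46.0 and a score of 203, with 19.4 in replicate 1 and 26.9 in replicate 2. A further region, 6181 bp from the outermost start and past the gene's end, had a signal of 39.6 and a score of 10, with 24.5 in replicate 1 and 19.1 in replicate 2. Of the 3 strongest hbl-1 regions, the upstream ones were thus higher in replicate 2 and the downstream one in replicate 1. The nearest conservative peak to the hbl-1 gene body was the puf-9 peak, 13435 bp away.

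For lin-29 (WBGene00003015, chromosome II, 11917642 to 11935343, minus strand), which encodes the zinc finger factor of the larval-to-adult switch, no region came near the threshold. The strongest lay in an intron at II 11924132 to 11924527, 11013 bp from the outermost start, with a signal of 42.8 and a score of 288, and scores of 45 in replicate 1 and 26 in replicate 2. The signals there were 25.6 in replicate 1 and 21.0 in replicate 2. The nearest conservative peaks lay 25303 bp from the lin-29 gene body, 68060 bp from lin-42, 117505 bp from lin-14 and 21358 bp from daf-12. A further daf-12 region, 8491 bp into the gene, had its summit 10 bp upstream of an inner annotated start, with a signal of 49.1 and a score of 61. It was the higher in replicate 2, with 17.1 in replicate 1 and 36.9 in replicate 2 (score 426).

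**Figure D4:**
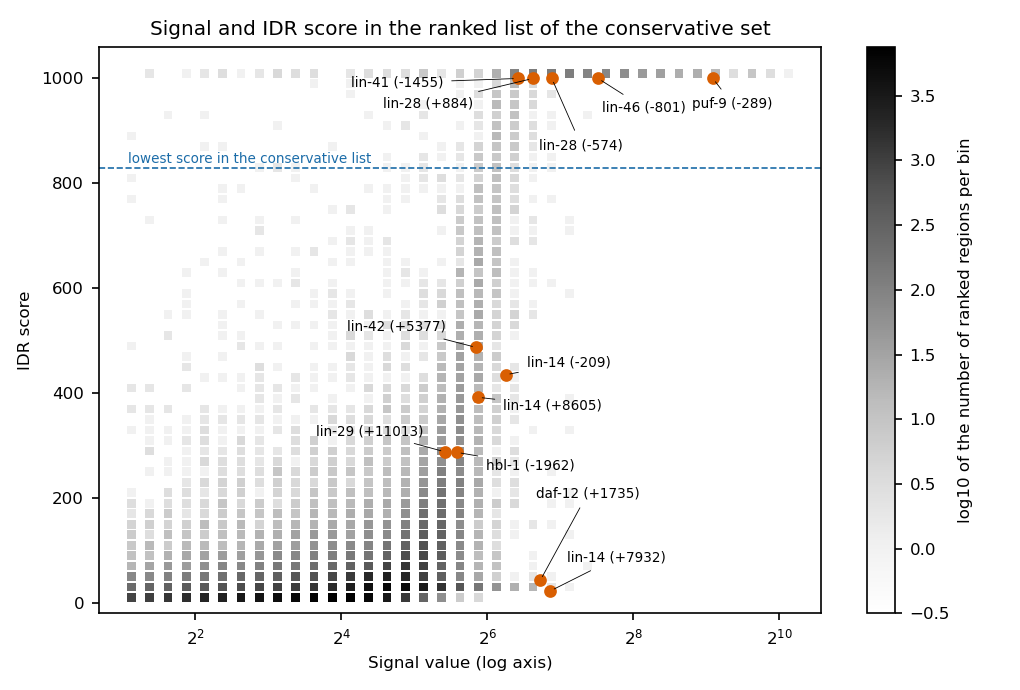
IDR score against signal value (log axis, base 2) in the ranked list of the conservative set, with grey squares for the number of regions per bin (log10 scale) and orange points for the 12 loci of the 9 genes, labelled with the distance from the outermost start in bp. The dashed line is the lowest conservative score, 830: lin-14 at +7932 bp (116.5) and daf-12 at +1735 bp (105.8) have signals like those of the lin-28 peaks and scores of 23 and 43.

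In the ranked list of the conservative set, none of the loci described for the 9 genes scored between 487 and 1000. Among these loci, the weakest past the threshold was that of lin-41, with a signal of 85.2 and a score of 1000. The highest score short of the threshold was that of lin-42, with a signal of 57.7 and a score of 487. The lin-14 intron at +7932 bp and the daf-12 intron were stronger than lin-41 and scored lower than lin-42. In the ranked list of the other set, some of these loci had scores in that range: 916 at lin-14 (+8605 bp), 687 at lin-42 and 632 at hbl-1. How often the loci of other genes leave this range empty was not tested.

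The sequences around the summits were searched for 11 short motifs on both strands, in 101 bp windows, to see what the loci share. The homeodomain core TAAT was searched alone and as the longer palindromic motif TAATTA. The motif ATCGAT was searched as such and again in the variant form written ATCAAT. The motif TGATAA is of the kind bound by GATA factors, the purine repeat searched was spelled GAGAGA, the E-box was spelled CACGTG and the last of the hexamers was CGCGCC. The Pumilio element was written as DNA, as TGTANATA. The complement of the let-7 seed was searched as CTACCTC and the complement of the lin-4 seed was searched as CTCAGGG. The short core can lie within the longer palindrome and can overlap the GATA-factor motif. CGCGCC occurred in the summit windows of 4 of the 9 called loci, those of lin-46, lin-41, the lin-14 intron at +7932 bp and the daf-12 intron. Of these, lin-46 and lin-41 are conservative peaks, while the lin-14 and daf-12 introns scored below 830 in the ranked list of the conservative set. CGCGCC was present in 11.5% of all conservative windows and in 1.39% of the windows of ranked regions scoring below 830. The motif list was drawn up with earlier results of these data known. The lin-46 window, at chrV:12968004-12968104 on the plus strand, held both CGCGCC and TGATAA, which are in capitals.
lin-46 summit: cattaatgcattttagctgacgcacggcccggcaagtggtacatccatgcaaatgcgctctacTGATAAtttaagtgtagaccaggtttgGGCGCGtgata

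TGATAA also occurred at the lin-28 peak 574 bp upstream, and was present in 4.7% of conservative windows and 8.83% of windows below the threshold. TAAT was found 3 times at lin-46 and 1 time at the inner lin-28 start, and not in the windows of the other 7 called loci. It was present in 40.2% of conservative windows and 62% of windows below the threshold. None of the 11 motifs was found in the window of the puf-9 summit, at the lin-14 start or at the lin-14 region at +8605 bp. GAGAGA, present in 19.6% of conservative windows and 5.12% of those below the threshold, was in none of the 9 summit windows of called loci, nor were the Pumilio element and the microRNA seed complements. Outside its summit window, the puf-9 peak printed above held 1 GAGAGA and 1 TGATAA, both read on the minus strand and not in capitals there, and the other peaks were not searched beyond their windows.

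The summit windows differed in base composition. The share of G and C was 60.4% at the daf-12 intron, 54.5% at puf-9 and at the lin-14 intron at +7932 bp, 53.5% at +8605 bp, 52.5% at lin-41, 50.5% at the lin-14 start, 48.5% at the inner lin-28 start, 47.5% at lin-46 and 37.6% at the lin-28 peak 574 bp upstream. The median was 47.5% over conservative windows and 35.6% over windows below the threshold. Thus 8 of the 9 called loci were at or above the conservative median, and the upstream lin-28 peak was below it. The lin-14 and daf-12 loci among the 9 were not conservative peaks. Among the uncalled regions, lin-42 had the most G and C of the 12 loci, at 65.3%, with 46.5% at hbl-1 and 24.8% at lin-29.

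A fixed list of 37 other genes of the heterochronic pathway and of its microRNA machinery gave the surrounding picture. Of the 36 matched in the annotation, 9 (25%) had a conservative peak within the gene body plus 3 kb, beside 11.1% of all protein-coding genes. The microRNA gene let-7 was not matched by its symbol, so it was not examined. Counts among the 36 were 10 in the other whole-series list, 9 in replicate 1 and 4 in replicate 2. The shares of all protein-coding genes in these lists were 12.3%, 10.6% and 7.12%. These shares are not matched to the listed genes for window length or for gene class. The listed microRNA genes and the long noncoding RNA gene lep-5 are not protein-coding. None of those matched had a peak in any thresholded list. The list was drawn up with earlier results known, and its members were not tested. Genes dropped while it was drawn up included cgh-1 and hsp-90, which earlier results had shown with peaks, so its share depends on that choice.

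Among the genes of microRNA processing and action in that list, drsh-1, nhl-2, ain-1, xrn-2 and pash-1 had a conservative peak, while alg-1, alg-2, dcr-1, ain-2, pup-2 and pup-3 were without one in each of the 4 thresholded lists. The peak in the window of drsh-1, which encodes the Drosha nuclease, had a signal of 741.2, with 532.4 in replicate 1 and 195.4 in replicate 2, but its summit was 2974 bp upstream of drsh-1 and 27 bp from the start of cox-5B. At nhl-2, a TRIM-NHL cofactor of microRNA complexes, the signal was 596.1 (326.7 in replicate 1 and 272.8 in replicate 2), with the start of tag-340 nearer than that of nhl-2. These 2 strongest peaks of the list therefore lie nearer to other genes. A peak of 194.9 lay 946 bp upstream of ain-1, which encodes a GW182-type protein of the silencing complex, and a peak of 138.9 lay 90 bp upstream of pash-1, which encodes the partner of Drosha. At xrn-2, an exonuclease gene, the peak of 183.9 was nearest to Y48B6A.1.

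Among the regulators, din-1, which encodes a corepressor that binds DAF-12, had 4 conservative peaks, the strongest of 208.3 lying 716 bp upstream of its start. Its replicate signals were 135.2 in replicate 1 and 84.0 in replicate 2. A peak of 112.2 (score 968) lay 71 bp upstream of hrpa-1, a homologue of hnRNP A1 genes. The casein kinase gene kin-20 had 2 peaks, the stronger of 104.6 in an intron. At sea-2 the peak, of 86.7, lay in an intron. The microRNA genes lin-4, mir-48, mir-84 and mir-241, the transcription factor genes nhr-23, nhr-25 and blmp-1 and the hormone synthesis gene daf-9 were among the 27 matched genes with no conservative peak. For the PUF family, 9 of 11 other genes were matched (puf-3, puf-5, puf-6, puf-7, puf-8, puf-11, puf-12, fbf-1 and fbf-2), and none had a peak in any of the 4 thresholded lists. Over all protein-coding genes the shares were 11.1% (conservative), 12.3% (other whole-series), 10.6% (replicate 1) and 7.12% (replicate 2). At such shares, 9 genes are too few to tell the family from other genes.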

How the data were processed

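ChIP-seq of tagged CEH-88 in whole L1 larvae gave 2 replicates of 1 group. The analysis started from the narrowPeak lists that the authors deposited on ce11, per the labels. Aligner, peak caller and read depth: not given in the sources used here. A control experiment to which the labels point was not analysed here. The deposited score follows the IDR on a log scale, and the deposited signal value is the authors' measure of peak strength, used to describe and rank regions and to set the replicates side by side. The list taken as the main one is called conservative by the authors. Each thresholded list of the whole series was paired with the ranked list that shares its coordinates and scores (1170 of 1171 and 1348 of 1349 peaks). In each ranked list of the whole series, 8 columns of per-input values were not used.

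Genes came from Ensembl release 115 (WBcel235) and sequence from the RefSeq copy. A locus joins overlapping called regions of the 4 lists, and for genes without one the strongest ranked region was taken, a choice made after the regions were seen. A replicate's value at a peak or locus is the strongest overlapping region of its own ranked list, and summits are those of the conservative set. Python 3.11.15, pandas 2.3.3, numpy 2.4.6 and matplotlib 3.10.9 were used, and the overlap code was tested on simulated regions. No test was run. The genes, gene lists and motifs were chosen with earlier results of these data known. The genes named are the 9 genes, the gene whose start is nearest to each of their peaks, the fixed-list genes with a conservative peak, and the genes nearest the 3 peaks most similar to each gene's strongest peak in log2 replicate signal. Other genes named, such as those listed without a peak and overlapping ncRNA genes, were named after their values were seen. Alternatives were the other lists, a score of 1000, windows of 1 kb and 5 kb and the summit in place of the overlap.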

Additional observations from a re-analysis of the deposited data

How the results depend on the processing

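The count of the 9 genes with a conservative peak (4) ranged from 3 to 5 when either replicate was left out. It was 5 in the other whole-series list, 3 with windows of 1 kb, and 4 with windows of 5 kb, with a score of 1000 or with the summit as the criterion. Leaving out a replicate, that is, taking the other replicate's own list, gave 3 to 8 peaks in place of 5, 18.2 to 48.5 peaks per Mb in place of 30.3, and a median strongest signal of 84.97 to 97.5 in place of 150.6. The lower signals follow in part from construction, since replicate lists have a lower signal scale than the conservative list (medians of 74.2 and 69.7 against 115.1). Without replicate 2 the list is that of replicate 1 and holds lin-14 and daf-12 but not lin-41. Without replicate 1 the list is that of replicate 2 and holds lin-28, lin-46 and puf-9. The median over genes was defined after the files were seen. No paired analysis was possible because there is 1 group. With 2 replicates and no read depths, a difference between the replicates at 1 locus has no error of its own.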
